A study of Arabidopsis thaliana with 12 samples.

Results

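The comparison set the leaves of one TaFLS overexpression line against those of another in Arabidopsis thaliana, the thale cress, a laboratory model of flowering plants. It rests on 6 of the 12 arrays of the study, 3 whose titles name TaFLS overexpression line 1, called OE1 here, and 3 whose titles name TaFLS overexpression line 2, called OE2. Members were chosen by array title alone, and no array of another genotype enters the difference. The remaining arrays are 3 of Col-0, the wild type, and 3 of fls1-3, a mutant named for a flavonol synthase gene. All plants were 6 weeks old and grown in soil at 22 °C and 60% relative humidity, with light for 16 h a day. Rosette leaves were taken, and no treatment separates the groups. OE1 and OE2 thus differ, by their labels, in the line and in flavonol content, which the labels describe as decreased in OE1 and as increased in OE2. The labels also describe it as increased in fls1-3. Decreased flavonols in a line named for overexpressing a flavonol synthase, and increased ones in a mutant named for that enzyme, run against the genotype names, and the files do not settle this. The sources used here give neither the promoter driving TaFLS nor whether each line is 1 transformation event. The titles call the arrays biological replicates without saying whether they came from separate plants or pools, so every p-value here refers to the scatter among these arrays, which may be technical.

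Flavonol synthase converts dihydroflavonols into flavonols such as quercetin and kaempferol. In leaves these are stored as glycosides, and they are known as ultraviolet screens, antioxidants and modulators of auxin transport. In guard cells, the pair of cells that opens and closes each stomatal pore, flavonols are known to lower the level of reactive oxygen species. Independent lines of 1 transgene are usually compared to see which differences from the wild type they share, so the difference between the lines is itself a measurement of how alike they were.

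Each array gave 22810 probe-set values on a log2 scale, of which 64 belong to control probe sets and 22746 were tested. Array medians were 7.30 to 7.55 on the arrays labelled OE1 and 7.36 to 7.47 on those labelled OE2. Across probe sets, OE1 arrays correlated with each other at r = 0.916 to 0.923, OE2 arrays at 0.931 to 0.935, and OE1 with OE2 arrays at 0.92 to 0.93. Leaf identity was clear in both lines: 9 genes of leaf photosynthesis, among them RCA for rubisco activase and LHCB4.1 for a light-harvesting protein, had median levels of 14.33 in OE1 and 14.21 in OE2. The 6 pollen and flower markers, by contrast, all lay in the dimmer part of the array in both lines, with median levels of 3.35 in OE1 and 3.45 in OE2.

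The control probe sets divided the lines in several ways that must be read beside every result below. One control probe set, AFFX-r2-At-U12639_at by its array name, is assigned to a gene by neither the files nor the annotation table. It gave 0.63, 1.59 and 1.70 on the arrays labelled OE1, against 14.18, 14.28 and 14.38 on those labelled OE2. Col-0 gave 4.68, 5.15 and 5.31, and fls1-3 gave 13.03, 13.24 and 13.5. OE1 was thus the lowest group and OE2 the highest, with no overlap, and fls1-3 lay beside OE2. The OE1 values lie near the floor of the scale at 0, where signals scatter. No fold is given for that reason. None of the other 63 control probe sets differed between OE1 and OE2 by more than 0.75. The labels give OE1 and OE2 the same transgene and name none for fls1-3. Whether the arrays labelled OE1 carry the transgene was not tested, because the files name no probe set for TaFLS. No named probe set stood for FLS1, the endogenous gene, which was not analysed here. The lines are called OE1 and OE2 below as the arrays are labelled.

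The control transcripts also differed in the balance of their ends. The array carries probe sets at both ends of these transcripts, and labelling starts at the 3' end. For GAPDH the excess was 2.1, 2.44 and 2.27 log2 units in OE1, against 1.65, 1.15 and 1.46 in OE2. For actin it was 2.81, 3.41 and 3.5 in OE1, against 2.47, 2.32 and 2.57 in OE2. For ubiquitin it was 1.07, 1.26 and 1.4 in OE1, against 0.57, 0.62 and 0.79 in OE2. Every OE1 array lay above every OE2 array for these probe pairs. The mean differences were 0.85, 0.79 and 0.59. A second probe pair for each transcript gave smaller differences of 0.29 for GAPDH, 0.41 for actin and 0.22 for ubiquitin. The pairs given first come from the series marked r2 for actin and ubiquitin and from the other series for GAPDH. They are thus not 1 series, and each is the pair with the larger difference. The exact two-sided permutation p was 0.1, the smallest that 20 splits of 3 against 3 allow, except for the second ubiquitin pair at p = 0.4. Adjusted over the 10 array measures compared, these were 0.143 and 0.444. Outside the r2 series, the added hybridisation standards averaged 10.84 in OE1 and 10.39 in OE2. With the r2 series counted in, all 18 of their probe sets read higher in OE1, by 0.16 to 0.60. The part of these end and standard differences in the results was not tested.

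**Figure D1:**
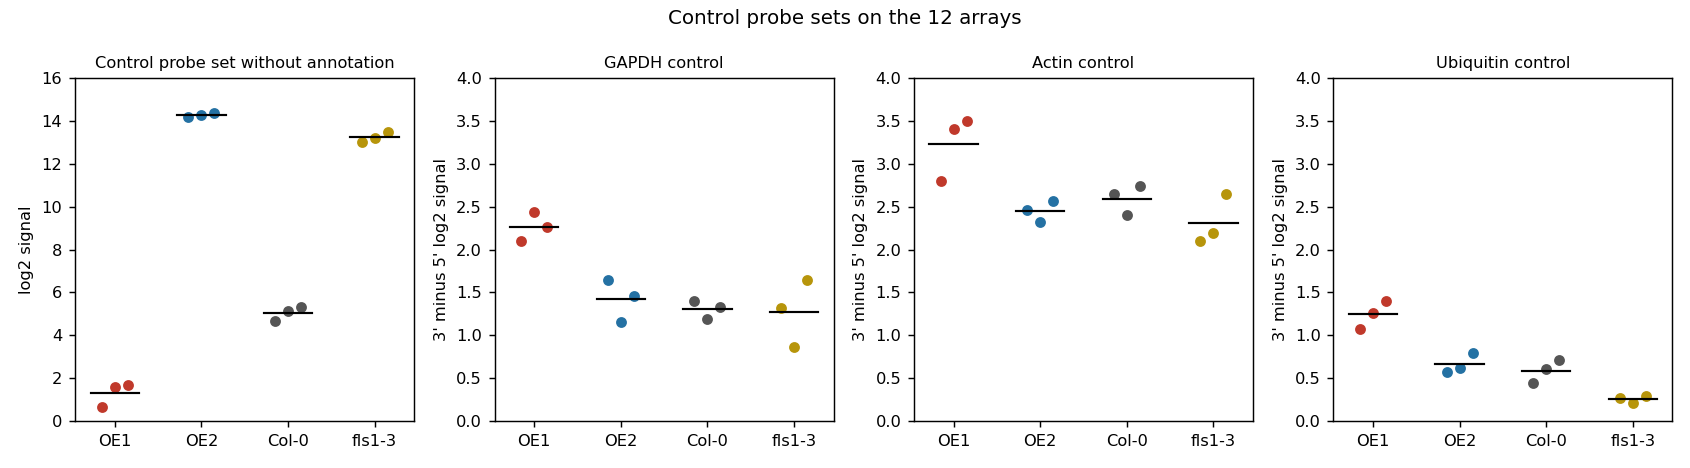
Control probe sets on the 12 arrays in log2 units, with a point per array and a line at the group mean of 3 arrays. The left panel shows the control probe set without annotation, at 0.63 to 1.70 in OE1 and 14.18 to 14.38 in OE2. The other panels show the 3' minus 5' signal of GAPDH, actin and ubiquitin from the probe pair with the larger difference. Every OE1 array there lies above every OE2 array.

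With limma fitted to all 12 arrays and Benjamini-Hochberg adjustment over 22746 probe sets, 6 passed an adjusted p of 0.05, which is 0.0264% of those tested. Of these, 3 were higher in OE1 (0.0132%) and 3 were lower (0.0132%). At an unadjusted p under 0.05 there were 1918 (8.43%), with 874 higher (3.84%) and 1044 lower in OE1 (4.59%). The count depended on the fit: it was 532 with array weights and 212 when each array's median entered as a covariate. The median difference over all probe sets was 0.031. Fitting the 6 arrays of these lines alone gave 89 calls (0.391%), with 19 higher (0.0835%) and 70 lower in OE1 (0.308%), and the 6 probe sets called from 12 arrays were among them. Both fits give the same differences and differ only in the spread they use: the median SD within a group was 0.36 in OE1 and 0.27 in OE2, against 0.45 in Col-0 and 0.42 in fls1-3. The count from the 6 arrays rested on single arrays. It was 275 without OE1 replicate 1, 160 without OE1 replicate 2 and 4 without OE2 replicate 1. It was 0 by limma without OE1 replicate 3, without OE2 replicate 2 or without OE2 replicate 3, where 2057, 2040 and 2414 probe sets had an unadjusted p under 0.05.

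**Figure D2:**
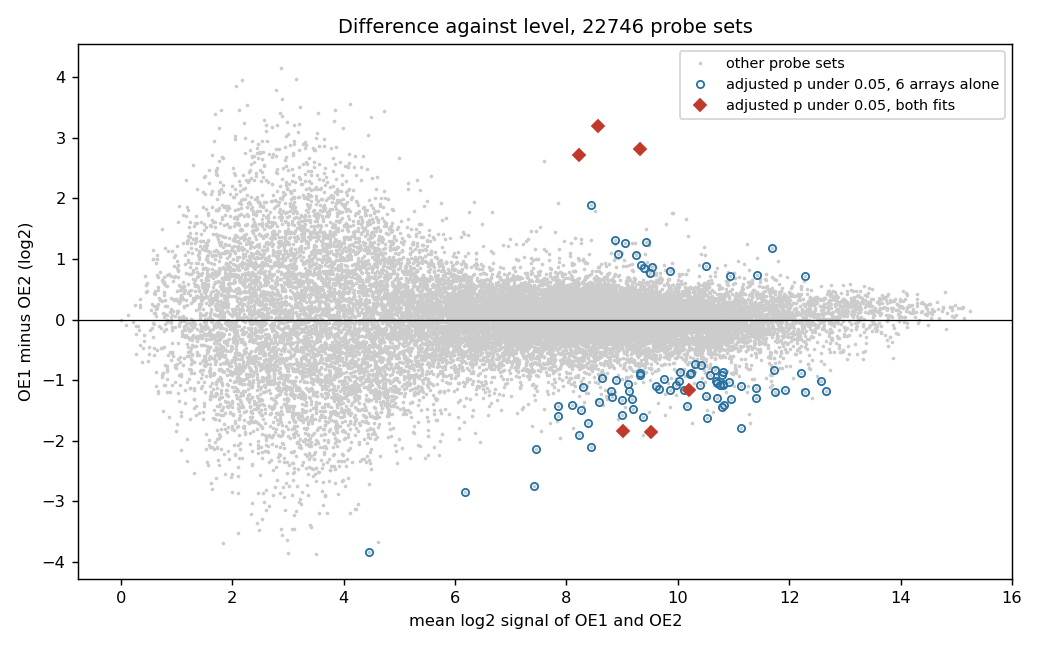
OE1 minus OE2 (log2) against the mean log2 signal of both lines for the 22746 probe sets. Diamonds are the 6 probe sets past an adjusted p of 0.05 in the fit to 12 arrays, circles the others among the 89 of the fit to 6 arrays, and the scatter of the remaining probe sets is widest at low signal.

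ORA47 had the largest difference among the called probe sets that name a gene, and was higher in OE1 than in OE2. It encodes an AP2/ERF transcription factor known to respond quickly to wounding and jasmonate and to activate jasmonate synthesis genes. Its log2 levels were 9.85, 10.56 and 10.07 in OE1, against 7.56, 6.56 and 6.76 in OE2. Every OE1 array thus lay above every OE2 array. The difference was 3.20 ± 0.33 (SE, n = 3 against 3), a 9.18-fold higher signal in OE1, with a 95% interval of 2.48 to 3.91 (limma, adjusted p = 0.00244). Col-0 stood above both lines, at 12.37, 12.36 and 11.21, and fls1-3 stood between them, at 8.95, 8.96 and 9.19. In whole leaves, fewer cells of a type and less RNA per cell cannot be told apart, here or in the results that follow. ORA47 stayed past the threshold in every one of the alternatives run on the 12 arrays, including those that left out 1 array. In the fit to the 6 arrays of these lines it passed (adjusted p = 0.00903), and it still passed in 3 of the 6 such fits with 1 array left out.

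psaC, the plastid gene for an iron-sulphur subunit of photosystem I, was also higher in OE1. Its log2 levels were 9.05, 10.17 and 9.53 in OE1, against 6.28, 6.87 and 7.44 in OE2. The groups did not overlap, and the difference was 2.72 ± 0.39, a 6.58-fold higher signal (adjusted p = 0.0469, 95% interval 1.88 to 3.56). Every OE1 array also lay above every array of the other genotypes, since Col-0 gave 6.09, 6.99 and 7.11 and fls1-3 gave 5.99, 5.69 and 6.23. The group means were 9.58 in OE1, 6.86 in OE2, 6.73 in Col-0 and 5.97 in fls1-3. Those of OE2, Col-0 and fls1-3 lay below 7.34, the median of the probe-set means. By its mean over all arrays, psaC was the only called probe set in the dimmer part of the array. The median SE there was 0.86, against 0.39 for psaC. The call was narrow. It was kept without Col-0 replicate 1 or 3 and lost when any other single array was left out, with adjusted p between 0.0518 and 0.236, although the difference then stayed between 2.43 and 3.01. It was also lost with arrays centred on their medians (0.0656), without an intensity trend (0.161) and without the fls1-3 arrays (0.0646).

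The other called probe sets carry no gene in the annotation and are given by their array names. Probe set 254764_at was higher in OE1, with 10.39, 10.99 and 10.79 against 7.26, 8.49 and 7.97 in OE2. The difference was 2.82 ± 0.28 (7.05-fold, limma, adjusted p = 0.00244). The 3 OE2 arrays were the lowest of all 12, since Col-0 averaged 11.24 and fls1-3 10.86. Probe set 267461_at was lower in OE1, with 8.58, 8.44 and 8.74 against 10.23, 10.52 and 10.58 in OE2 (-1.85 ± 0.18, limma, adjusted p = 0.00244). Probe set 250777_at was lower as well, with 8.17, 8.10 and 8.03 in OE1, against 10.23, 9.88 and 9.72 in OE2 (-1.84 ± 0.17, limma, adjusted p = 0.00244). For 250777_at Col-0 averaged 7.36 and fls1-3 9.94, nearer OE1 and OE2 in that order. For 267461_at Col-0 averaged 7.81, below both lines, and fls1-3 averaged 9.48, between them. Probe set 263786_at fell by 1.17 ± 0.16 on the log2 scale, with 9.63, 9.48 and 9.75 in OE1, against 11.06, 10.84 and 10.47 in OE2 (adjusted p = 0.0391). The first 3 kept their calls under the alternatives run on the 12 arrays. 263786_at lost its call in 7 of the 12 fits that left out 1 array, namely without Col-0 replicate 2, without fls1-3 replicate 2, without any 1 of the OE1 arrays, and without OE2 replicate 1 or 2, with adjusted p up to 0.236.

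**Figure D3:**
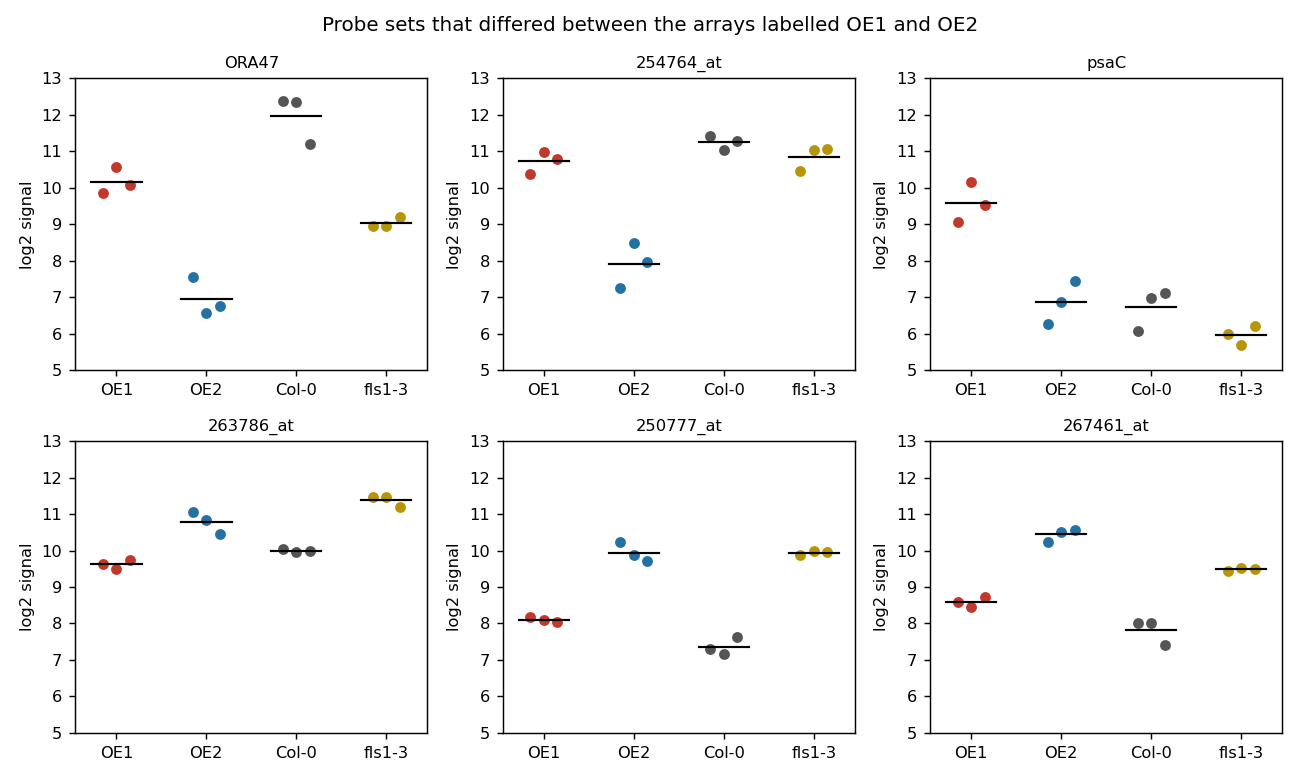
Log2 signal of the 6 called probe sets, with a point per array and a line at the mean of 3 arrays, for OE1, OE2, Col-0 and fls1-3. In each panel all OE1 points lie on one side of all OE2 points, and for psaC every OE1 point lies above every point of the other genotypes.

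Among the 89 probe sets called from the 6 arrays alone, 41 name 1 gene, with 13 higher and 28 lower in OE1. The values of those past the naming rule follow as results of that smaller fit. Apart from ORA47 and psaC, given above, none of them passed in the fit to 12 arrays. Beyond ORA47 and psaC, the differences of largest size were those of genes lower in OE1. AT3G04010 had 4.73, 4.45 and 5.09 in OE1, against 7.75, 7.62 and 7.44 in OE2, a difference of -2.84 (adjusted p = 0.0317 from 6 arrays and 0.308 from 12). AT5G62360 had 5.69, 6.35 and 6.11 in OE1, against 9.61, 8.48 and 8.29 in OE2, a difference of -2.75 (0.0317 and 0.0744). OE1 and OE2 did not overlap for either gene, nor for the rest of this set, since separation was required for naming. AT5G38710, at -2.10, and AT2G34930, at -1.90, followed (0.0753 for each from 12 arrays). The remaining 8 lower genes, AT4G28085, AT1G66760, AT4G25260, AT4G21870, AT5G12050, AT2G15960, AT2G18690 and AT3G15450, differed by -1.60 to -1.18. AT3G15450 was the brightest of them, with 12.05, 11.92 and 12.22 in OE1, against 13.30, 13.20 and 13.22 in OE2.

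Among the genes that were higher in OE1 in that fit, AT2G29300 followed ORA47 and psaC, with 9.18, 9.58 and 9.81 in OE1, against 8.27, 8.45 and 7.90 in OE2, a difference of 1.32 (adjusted p = 0.0434 from 6 arrays and 0.147 from 12). AT1G60590 stood at 1.28, but its Col-0 arrays ran from 6.39 to 10.76, so its standard error was 0.21 from 6 arrays and 0.81 from 12. AT1G64500, AT2G21860, AT5G45650 and AT2G30150 differed by 0.85 to 0.89, and AT1G15250, AT3G09440 and AT1G15290 by 0.72 to 0.76. rpl20, a plastid ribosomal protein gene, is given with the plastid genes below. The files give no role for the genes named by locus alone.

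Levels in the other genotypes were set beside these calls after the values had been seen. For 67 of the 89 probe sets (75.3%) the fls1-3 mean was nearer the OE2 mean than the OE1 mean, against 62% of all probe sets tested. The Col-0 mean was nearer that of OE2 for 19 (21.3%), against 51.7% of all, and nearer that of OE1 for the other 70. These shares are descriptions, since the calls were chosen on the OE1 and OE2 values themselves.

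The list of regulators that respond quickly to stress writes 34 symbols, of which 5 were measured, and 1 of these 5, ORA47, was called. All 5 had a difference above 0, with a median of 1.27, against a median of 0.031 and 52.8% above 0 over all probe sets. This list and the carbon starvation list below were written with earlier results of these data known, so their counts are descriptions only. STZ, a zinc-finger repressor known from salt, cold and oxidative stress, had 10.06, 11.39 and 10.91 in OE1, against 9.68, 8.75 and 8.65 in OE2, a difference of 1.76 ± 0.44 (adjusted p = 0.242). WRKY53, a transcription factor of early senescence and defence, had 9.24, 10.47 and 10.53 in OE1, against 8.52, 9.06 and 8.84 in OE2, a difference of 1.27 ± 0.34 (adjusted p = 0.27). OE1 lay above OE2 on every array for both, as for 9.54% of all probe sets, although OE1 replicate 1 was the lowest of its line for each. WRKY6 and WRKY22 overlapped, at 0.29 and 0.25. In Col-0, STZ averaged 12.12 and WRKY53 10.94, above both lines. The 6 measured calmodulin-like calcium sensor genes were split, with 3 above 0 and 3 below, a median of -0.17 and no call. They ran from -0.72 for CML41 to 1.02 for CML37, and OE1 lay wholly above OE2 for CML23 and wholly below for CML42. GI, the 1 gene measured from the 38 symbols of the clock list, stood at 0.01 with an interval of -0.32 to 0.35.

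The list of carbon starvation genes, known to be switched on when leaves run short of sugar, has 16 measured members. None passed in the fit to 12 arrays, 1 passed in the fit to 6, and 14 of 16 differences were below 0, with a median of -0.42 (10731 of all 22746 probe sets lay below 0). OE1 lay below OE2 on every array for 8 of the 16, as for 8.87% of all probe sets. AKINBETA1, a regulatory subunit of the energy-sensing kinase SnRK1, had 10.04, 10.28 and 10.03 in OE1, against 11.08, 11.15 and 10.86 in OE2. The groups did not overlap, and the difference was -0.92 ± 0.14 (adjusted p = 0.0721 from 12 arrays and 0.0335 from 6). Col-0 averaged 10.11, like OE1, and fls1-3 10.74.

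The list also holds enzymes that break down amino acids, with 3 of 4 below 0 and none called. MGL, methionine gamma-lyase, had 8.09, 8.15 and 8.31 in OE1, against 9.52, 9.84 and 8.83 in OE2 (-1.22 ± 0.50, adjusted p = 0.518). IVD, isovaleryl-CoA dehydrogenase of leucine breakdown, had 8.02, 7.97 and 8.38 in OE1, against 8.81, 9.11 and 8.73 in OE2 (-0.76 ± 0.23, adjusted p = 0.328). MCCA, a subunit of methylcrotonyl-CoA carboxylase in the same pathway, had 9.14, 9.21 and 9.43 in OE1, against 9.85, 10.14 and 9.81 in OE2 (-0.67 ± 0.19, adjusted p = 0.279). The groups did not overlap for these 3, yet the other subunit, MCCB, stood at 0.14 with an interval of -0.22 to 0.51. The ATG8 genes, whose small proteins coat the membranes of autophagy, ranged from -0.78 for ATG8H to -0.12 for ATG8B, and all 9 lay below 0. BZIP53, a transcription factor of the low-energy response, stood at 0.15.

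**Figure D4:**
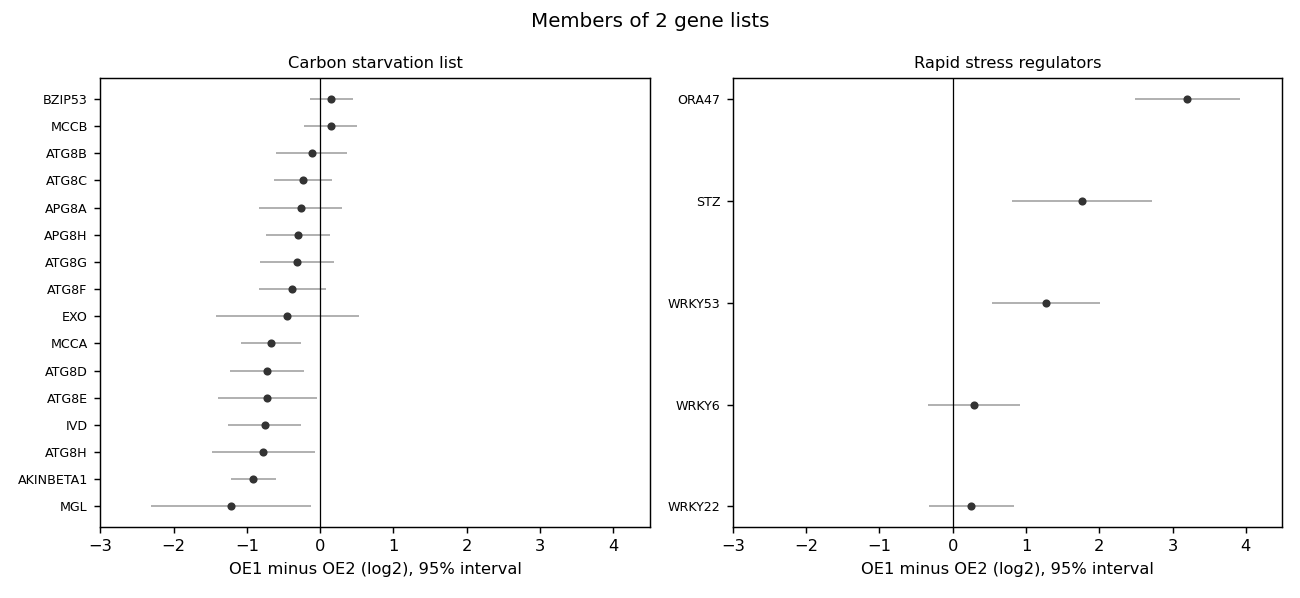
OE1 minus OE2 (log2) with its 95% interval from the fit to 12 arrays for the 16 carbon starvation genes on the left and the 5 rapid stress regulators on the right. On the left 14 points lie below 0, and on the right all 5 lie above 0, with ORA47 at 3.20.

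Plastid genes are transcribed inside the chloroplast, encode core subunits of the photosynthetic complexes and of the organelle's own ribosome and polymerase, and their transcripts largely lack long poly(A) tails. Of 69 measured, 1 was called, psaC, and rpl20 passed in the fit to 6 arrays alone. Differences were above 0 for 57 of the 69 and below 0 for 12, with a median of 0.25, against 52.8% above 0 and a median of 0.031 over all probe sets. OE1 lay above OE2 on every array for 20 and below for 1, against 9.54% and 8.87% of all probe sets. The median level over these genes was 11.60, 12.19 and 11.94 in OE1, against 11.50, 11.63 and 11.57 in OE2. OE1 replicate 1 thus fell within the range of OE2, and OE1 replicate 2 was the highest. Without OE1 replicate 2 the median difference was 0.096, with 46 above 0, and without OE1 replicate 1 it was 0.36, with 66 above 0. With quantile normalization it was 0.20, with 54 above 0.

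Plastid genes were also grouped by symbol, after their values had been seen, and differences between these groups were not tested. The 7 rpl and 8 rps genes, for ribosomal proteins, were all above 0, with medians of 0.43 and 0.33. The 4 rpo genes, for RNA polymerase, were above 0 as well (median 0.37), as were the 6 atp genes, for ATP synthase (median 0.19). Of the 15 psb genes, for photosystem II, 9 were above 0, and their median was 0.15. The 10 ndh genes, for the NADH dehydrogenase-like complex, had a median of 0.11, and the 6 pet genes, for the cytochrome b6f complex, a median of 0.10.

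Single plastid genes ran from -0.62 for petD to 2.72 for psaC. rpl20 had 10.27, 10.28 and 10.22 in OE1, against 9.48, 9.32 and 9.59 in OE2, a difference of 0.79 ± 0.28 (adjusted p = 0.428 from 12 arrays and 0.039 from 6). atpH, for the ring subunit of ATP synthase, had 11.33, 12.05 and 11.60 in OE1, against 10.69, 10.79 and 10.72 in OE2 (0.92 ± 0.25, adjusted p = 0.273). The OE1 arrays of both lay above every OE2 array. psaC lies between ndhD and ndhE in the reference gene table. ndhE had 9.03, 10.01 and 9.09 in OE1, against 8.46, 8.17 and 8.43 in OE2 (1.02 ± 0.31, adjusted p = 0.319), whereas ndhD overlapped between the lines, at 0.18 ± 0.28. ndhE did not have the largest difference of its group, since another ndh gene reached 1.34 with overlapping arrays. psaA, for a large core subunit of photosystem I, was the single plastid gene with all OE1 arrays below all OE2 arrays, at -0.57 ± 0.35 (adjusted p = 0.724), and psaB, for its partner, stood at 0.25.

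**Figure D5:**
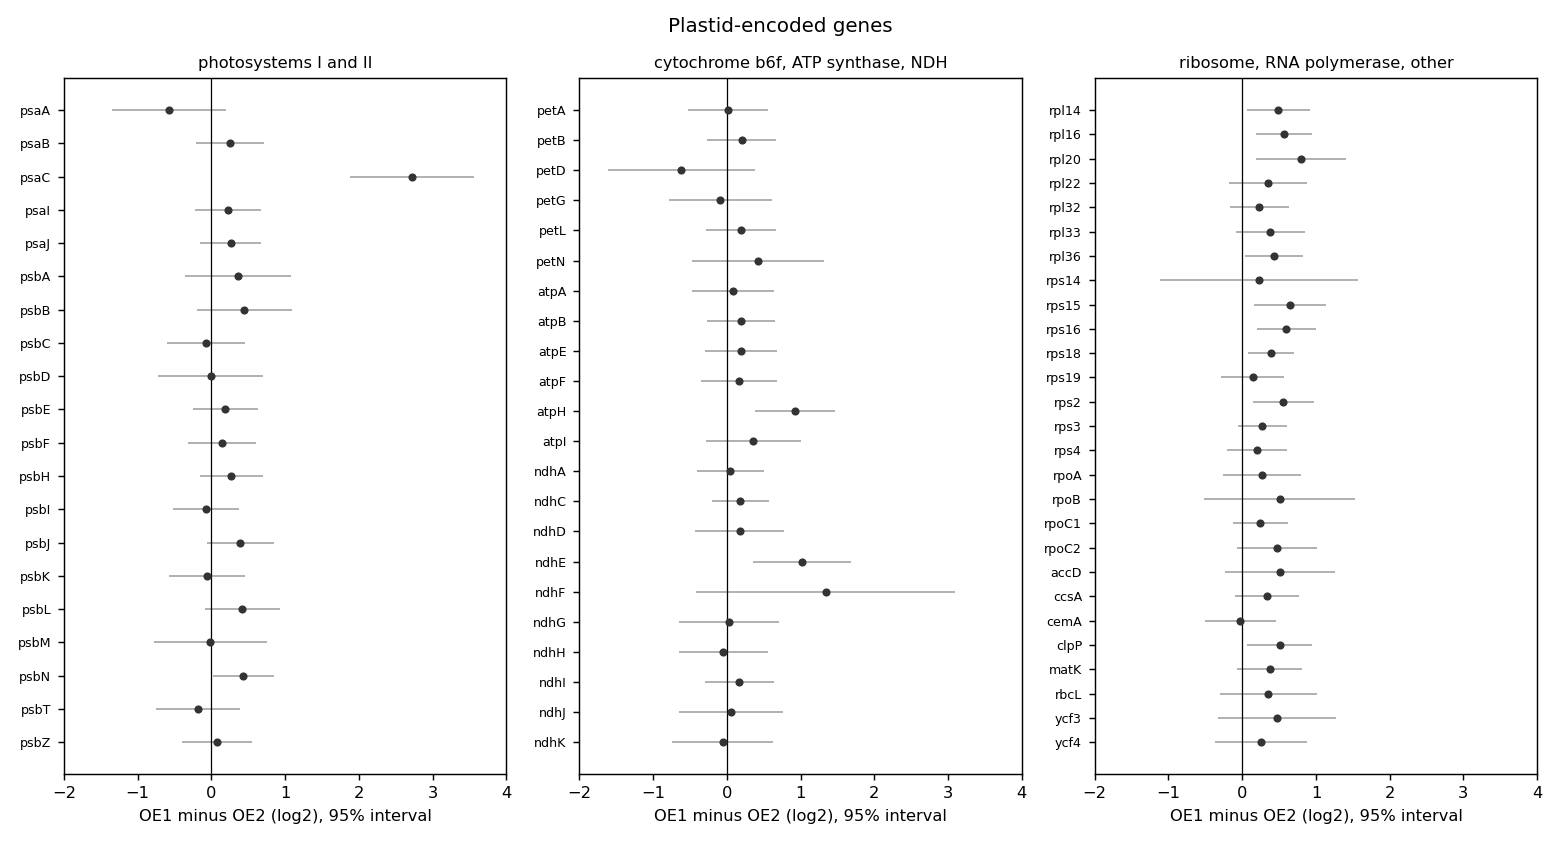
OE1 minus OE2 (log2) with its 95% interval from the fit to 12 arrays for the 69 plastid-encoded genes, set out by complex. Most points lie between 0 and 1, psaC lies at 2.72, and psaA and petD lie lowest at -0.57 and -0.62.

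Within OE1, replicate 2 had the highest plastid median and, by the probe pair given first above, the largest GAPDH excess. Replicate 1 had the lowest plastid median and, by the pairs given first, the smallest GAPDH, actin and ubiquitin excess. Within OE2, by the same pairs, it ran the other way for GAPDH. There replicate 2 had the highest plastid median and the smallest GAPDH and actin excess, and replicate 1 the lowest plastid median and the largest GAPDH excess. The second pairs changed this order in part. In OE1 the second GAPDH pair was largest in replicate 3 (0.85) and the second actin pair smallest in replicate 2 (5.15). In OE2 the second actin pair was smallest in replicate 1 (4.755). Replicate 1 stayed the lowest of OE1 for the second GAPDH and ubiquitin pairs, and the second GAPDH pair kept its order in OE2. The part of the end balance in the plastid differences was not tested. Nuclear genes for photosynthesis stood at a median of 0.14, with 8 of 9 above 0, none called and none with separate groups. The mitochondrial genes had 8 of 11 above 0 and a median of 0.40. Of these 11, 8 lay below the array's median level in both lines, none was called, and nad4, for a subunit of respiratory complex I, was the brightest at 0.60 ± 0.24. Nuclear genes for the editing and processing of plastid transcripts ran from -0.03 for OTP84 to 1.29 for OTP85 over 5 members with no call.

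No measured flavonoid gene was called. Of the 26 symbols in the flavonol list 4 genes were measured, and of the 28 in the anthocyanin list 3 were. UGT78D2, which adds glucose to flavonols and anthocyanins, had 9.22, 8.85 and 9.42 in OE1, against 8.73, 8.60 and 9.27 in OE2, and UGT78D1, which adds rhamnose, had 9.91, 9.63 and 9.73 in OE1, against 9.60, 9.49 and 9.87 in OE2. The lines overlapped for both, with intervals of -0.19 to 0.79 and -0.85 to 1.05. CHIL, a helper of chalcone isomerase, stood at -0.13, and UGT78D3 was dim. DFR, the enzyme that draws dihydroflavonols toward anthocyanins, had 9.31, 4.13 and 9.57 in OE1, against 8.42, 7.54 and 9.37 in OE2. The interval was -3.75 to 2.21, and arrays of other genotypes were low as well, at 4.61 for Col-0 replicate 1 and 4.98 for fls1-3 replicate 3. UF3GT, an anthocyanin glycosyltransferase, had 6.56, 2.18 and 7.52 in OE1, against 6.31, 5.70 and 6.34 in OE2, and 1.58 in Col-0 replicate 1.

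Of 5 cold-induced protective genes 4 had differences below 0 and none was called from 12 arrays. COR47, a dehydrin, had 10.24, 10.28 and 10.34 in OE1, against 11.46, 11.51 and 11.06 in OE2. The groups did not overlap, and the difference was -1.06 ± 0.21 (adjusted p = 0.147 from 12 arrays and 0.0317 from 6). LTI30, another dehydrin, had 5.92, 6.73 and 7.24 in OE1, against 8.88, 8.76 and 7.75 in OE2 (-1.84 ± 0.69, adjusted p = 0.462). COR15A and COR15B overlapped, at -0.39 and -0.33. QQS, a gene known for its effect on leaf starch, led the starch list at 1.17 ± 0.34, with 7.86, 8.26 and 8.42 in OE1, against 6.57, 7.54 and 6.93 in OE2 (adjusted p = 0.303). Its Col-0 arrays averaged 10.89, far above both lines.

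Measured members of the hormone and defence lists gave no call other than ORA47, which the jasmonate list also holds. Coverage was partial, at 5 of 34 symbols for jasmonate, 10 of 48 for auxin and 1 of 32 for salicylic immunity. JMT, which methylates jasmonate, had 6.06, 6.24 and 6.78 in OE1, against 7.55, 7.46 and 7.28 in OE2 (-1.07 ± 0.37, adjusted p = 0.411). PDF1.2, a defensin gene, ranged from 11.07 to 13.14 in OE1 and from 8.37 to 14.00 in OE2, so no difference could be resolved. Of 10 auxin genes 7 were below 0, led by GH3.3 at -1.02 and IAA29 at -0.99, and OE1 and OE2 did not overlap for 2 of the 10, IAA29 and HAT2, a share close to the 18.4% of all probe sets. EIN3, a transcription factor of ethylene signalling, stood at -0.50 ± 0.16 with separate groups (adjusted p = 0.355). Of 5 glucosinolate genes 4 were below 0 and none was called. The transporter genes GTR1, at -0.56 ± 0.23, and GTR2, at -0.50 ± 0.29, had adjusted p of 0.514 and 0.698, and UGT74B1, BCAT4 and AOP3 overlapped between the lines.

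Of 17 cell-wall growth genes 7 were above 0 and 10 below. EXPB1, a beta-expansin, had 8.01, 8.59 and 8.95 in OE1, against 6.55, 7.32 and 7.37 in OE2 (1.44 ± 0.51, adjusted p = 0.428). XTH33 had the lowest value, -1.52 ± 0.61, at levels under 6. STOMAGEN, a mesophyll peptide gene that promotes stomata, had 10.53, 10.59 and 10.44 in OE1, against 9.44, 10.08 and 9.76 in OE2 (0.76 ± 0.53, adjusted p = 0.753). The guard-cell lineage genes SPCH, MUTE and FMA overlapped and were dim. Reference genes differed little: GAPC2 stood at -0.02, TUB6 at -0.24 and PEX4 at -0.24, and all 3 intervals lay within 1 log2 unit of 0. The 32 lists write 1148 symbols, and 212 genes were measured. Of these genes 2 were called in the fit to 12 arrays and 5 in the fit to 6. In 27 lists neither fit made a call, which covers their measured members only.

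How far the lines could be said to be alike was read from the intervals. Of 22746 differences, 9943 (43.7%) had a 95% interval wholly within 1 log2 unit of 0. In the brighter part of the array, above the median of the probe-set means at 7.34, this held for 8848 of 11373 (77.8%), and in the dimmer part for 1095 (9.63%). The median SE was 0.22 in the brighter part and 0.86 in the dimmer part. Of the probe sets called in the fit to all arrays, only psaC lay in the dimmer part. Among the bright probe sets 192 differed by at least 1 log2 unit, of which 5 were called and 172 had groups that did not overlap. The 192 were picked by the size of that difference, so separate groups were largely set by the choice. Over all probe sets the groups did not overlap for 4188 (18.4%). In the fit to all arrays of the study, the smallest called difference was 1.17 in size. The fit to the OE1 and OE2 arrays alone called smaller ones, such as 0.72 for AT1G15290.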

How the data were processed

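Total RNA from rosette leaves, extracted with Trizol per the labels' protocols, was measured on 1 Affymetrix Arabidopsis array per sample with biotin-labelled cRNA made from 6 µg of RNA. The submitters' processing notes name MAS5, without a version. The values deposited are log2 signals with a floor of 0, as its values show, and the authors had scaled the arrays, since the 2% trimmed mean of the linear signals is 500 to 500.1 on each. The sources used here name no genome build.

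The log2 values were used as deposited, with no further normalization or filter. limma 3.58.1 in R 4.3.3 was fitted to all 12 arrays with 1 coefficient per group (8 residual degrees of freedom) and an intensity trend, OE1 minus OE2 was tested, and p-values were Benjamini-Hochberg adjusted over 22746 probe sets, with a threshold of 0.05. The fit to the 6 OE1 and OE2 arrays is an alternative. Single array measures were compared by exact permutation. The method was tested on simulated data in which each probe set had the same spread in every group. That test does not cover the unequal spread of the real groups.

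Gene names come from the platform annotation of 2016 with symbols from a reference gene table of the assembly TAIR10.1: 13513 probe sets name 1 gene, 503 several and 8730 none, and 13436 matched the table. Of a gene's probe sets the brightest stands for it. Probe sets named are those past the threshold in the fit to 12 arrays. From the fit to 6 arrays, at most 12 per direction are named, which name 1 gene, reach the median level in the higher line and separate the lines. Called members of 32 gene lists are named too, and up to 4 others per list are given as values. Other members of a list are named as examples after their values were seen. The symbols CHI and FDH were left out of the flavonol and cuticle lists, since in the annotation they name a chitinase and formate dehydrogenase. Members and lists were chosen with earlier results of these data known. The alternatives were quantile normalization, centring, the array median as a covariate, a filter on levels under the 40th percentile, pseudocounts of 1, 16 and 64, dropping cross-hybridising probe sets, no intensity trend, robust moderation, array weights, the replicate number as a block, leaving out the fls1-3 arrays and leaving out each array. Ranking the control probe sets, grouping plastid genes by symbol and setting Col-0 and fls1-3 levels beside the calls were chosen after seeing the data.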

Additional observations from a re-analysis of the deposited data

Results flagged for a closer look

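The control probe set that no annotation assigns to a gene lies outside the tested values. It averaged 14.28 ± 0.10 on the arrays labelled OE2, against 5.05 ± 0.33 in Col-0 (SD, n = 3 each), a difference of 9.24 log2 units. The arrays labelled OE1 averaged 1.3 ± 0.59, below Col-0, and fls1-3 averaged 13.25 ± 0.23. It was found by ranking all 64 control probe sets after the values were seen. For OE1 against OE2 an exact permutation test gave a two-sided p of 0.1, the smallest that 3 against 3 arrays allow. What this probe set detects, and whether it bears on the labels, was not tested.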

How the results depend on the processing

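In the fit to 12 arrays the count of 6 became 10 with quantile normalization (3 higher, 7 lower), 212 with the array median as a covariate (80 higher, 132 lower), 532 with array weights (214 higher, 318 lower) and 89 with the OE1 and OE2 arrays alone. Leaving out 1 array gave 4 (without Col-0 replicate 2) to 19 (without Col-0 replicate 1), with 11 without Col-0 replicate 3. With the replicate number as a block it was 13. Same-numbered arrays of the lines deviated together at r = -0.016, 0.04 and -0.031, against -0.074 to 0.092 for unlike numbers. The labels do not say what the numbers share, and 3 arrays per line cannot settle it. In the fit to 6 arrays the count of 89 became 55 with quantile normalization (9 higher, 46 lower), 5 with centred arrays, 695 with the covariate, 9 and 7 with pseudocounts of 16 and 64, 1 without the intensity trend, 1393 with array weights and 9 with the replicate block; leaving out 1 array gave 0 to 275. The cause of these shifts was not tested.

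263786_at lost its call with centred arrays (adjusted p = 0.0954), no intensity trend (0.206), robust moderation (0.0514), without the fls1-3 arrays (0.0557) and with the replicate block on the OE1 and OE2 arrays alone (0.0931). No named probe set changed direction under any alternative run. The count of intervals within 1 log2 unit of 0 was 20341 with a pseudocount of 64, which compresses low signals, and 8436 to 10509 when 1 array was left out. List medians moved by less than the spread between arrays: carbon starvation stayed between -0.48 and -0.40 and the rapid stress regulators between 1.05 and 1.69 when 1 array was left out, and plastid genes between 0.096 and 0.36. With 1 array left out, the OE1 minus OE2 difference in the 3' excess ranged from 0.72 to 0.96 for GAPDH. It ranged from 0.65 to 1.00 for actin and from 0.51 to 0.67 for ubiquitin, each for the probe pair given first. With 3 arrays per line, dim probe sets had a median SE of 0.86, so differences there were rarely resolvable.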
